A study of Arabidopsis thaliana with 40 samples.

Results

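The genes described here encode the nuclear subunits of the 2 photosystems, the carriers and ATP synthase subunits of photosynthetic electron transport, Rubisco and the enzymes of the Calvin cycle. They were chosen by locus from textbook membership of these complexes, with earlier results of these data known. The antenna proteins of the light-harvesting complexes were not among them. A region belonged to a gene when it overlapped the annotated span of that gene by at least 1 base. Each of the 50 genes overlapped exactly 1 of the 13362 regions that the authors tested, which gave 50 regions. Of these genes 12 encode photosystem I subunits, 10 photosystem II subunits, 8 electron carriers or ATP synthase subunits, 5 Rubisco small subunits or Rubisco activase, and 15 Calvin cycle proteins. In 41 cases the region overlapped no other gene, and in 9 cases (PSAE-1, PSAE-2, PSAG, PSAH-1, PSAH-2, PSBX, PGK2, RPI3 and CP12-2) it also covered at least 1 neighbour, whose share of the signal was not separated.

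The mark was acetylation of histone H3 on lysines 9 and 14 (H3K9/14ac), measured by chromatin immunoprecipitation and sequencing in whole Arabidopsis thaliana Col-0 seedlings 7 days old. Seedlings were grown in liquid with 1% sucrose and had 10 h of light and 14 h of dark a day. They received 5 µM of the deacetylase inhibitor trichostatin A (TSA), 250 µM of the nitric oxide donor S-nitrosoglutathione (GSNO), 250 µM glutathione (GSH, which lacks the nitroso group of GSNO), both 250 µM GSNO and 500 µM of the nitric oxide scavenger cPTIO, or water. Samples were taken after 3 h and 16 h, with 2 samples of each kind per treatment and time, which gave 20 immunoprecipitated and 20 input samples. All groups shared the wild-type background, the sucrose and the light regime. In whole seedlings, fewer cells that carry a mark and less of the mark per cell cannot be told apart.

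Photosystem II takes electrons from water, the cytochrome complex and plastocyanin pass them on, and photosystem I hands them to ferredoxin, from which NADPH is made. ATP synthase uses the proton gradient built on the way, and the Calvin cycle spends ATP and NADPH to fix carbon dioxide through Rubisco. H3K9/14ac usually lies over the start of transcribed genes, where acetyltransferases add it and deacetylases remove it.

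The deposited values of each region could be turned back into whole reads for 17 libraries, 2 for every group except water at 16 h, which had 1. The reads within regions numbered between 1590342 and 4053207 per library, and the libraries carry no replicate number. They are called a (shallower) and b (deeper), and levels are given as normalised reads, that is reads divided by a scale factor that sets library sizes equal. TSA at 16 h was not among these libraries, and only its peak lists are used here. The regions at the root genes SCR and SHR, at the epidermal gene GL2 and at the stomatal gene TMM all held reads in water at 3 h, at percentiles of level from 64.2 (SHR) to 97.6 (SCR) among all regions. The other stomatal gene chosen, FAMA, overlapped no region.

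In water at 3 h the median level of the mark differed between roles, but the regions within each role spread widely. Per kilobase, photosystem I regions ran from percentile 0.135 to 76.7 of all regions and electron transport regions from 0.793 to 95.9. The difference between roles was not tested. Per kilobase of region, the median level of the electron transport regions was 295 normalised reads, at percentile 76.1 of all regions. The Calvin cycle median was 207 at percentile 45.3, that of photosystem II 195 at percentile 39.2, that of Rubisco and activase 170.0 at percentile 26.8, and that of photosystem I 168 at percentile 26.0. The highest level per kilobase of the 50 regions was 491 at PETE2, one of the plastocyanin genes, and the lowest was 25.4 at PSAL, a photosystem I subunit on the side where the mobile antenna docks. PSBS, the photosystem II protein that sets photoprotective heat loss, was the lowest of its role at 72.5, and LFNR2, a leaf ferredoxin-NADP reductase, the lowest of electron transport at 79.0. PSAD-1 (298), PSBY (305), RBCS1A (274) and TKL1 (411) were the highest per kilobase of photosystem I, photosystem II, Rubisco and the Calvin cycle. RBCS1B (135) and cpFBPase (135) were the lowest of the last 2 of these roles.

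After 3 h with TSA, acetylation relative to the other regions was higher at 14 of the 50 regions and lower at 3. These calls are from the authors' deposited table, which was read at a false discovery rate (FDR) under 0.05. Over all regions that table called 10.7% higher and 10.1% lower, so the share called lower, 3 of 50, was under that of all regions. Reads were scaled between libraries, so a rise or fall between groups, here and below, is relative to the rest of the regions. Scaling would take out a gain or loss of the mark common to a whole library. Whether TSA changed the total amount of the mark was not tested. The rises lay mostly in the photosystems: 7 of 12 photosystem I regions, 3 of 10 photosystem II regions, 1 of 8 electron transport regions and 3 of 15 Calvin cycle regions were higher by the authors' deposited table, and 0 of 5 at Rubisco and activase. The falls were at 1 electron transport gene (PETE2) and 2 Calvin cycle genes (GAPB and CP12-1) in the same authors' deposited table. For electron transport, 1 of 8 higher and 1 of 8 lower are near the shares of all regions. The median log2 fold by the authors' deposited table was 0.93 for photosystem I, 0.15 for photosystem II, -0.07 for electron transport, -0.21 for Rubisco and activase and 0.20 for the Calvin cycle, where the median of all regions was 0.00.

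**Figure D1:**
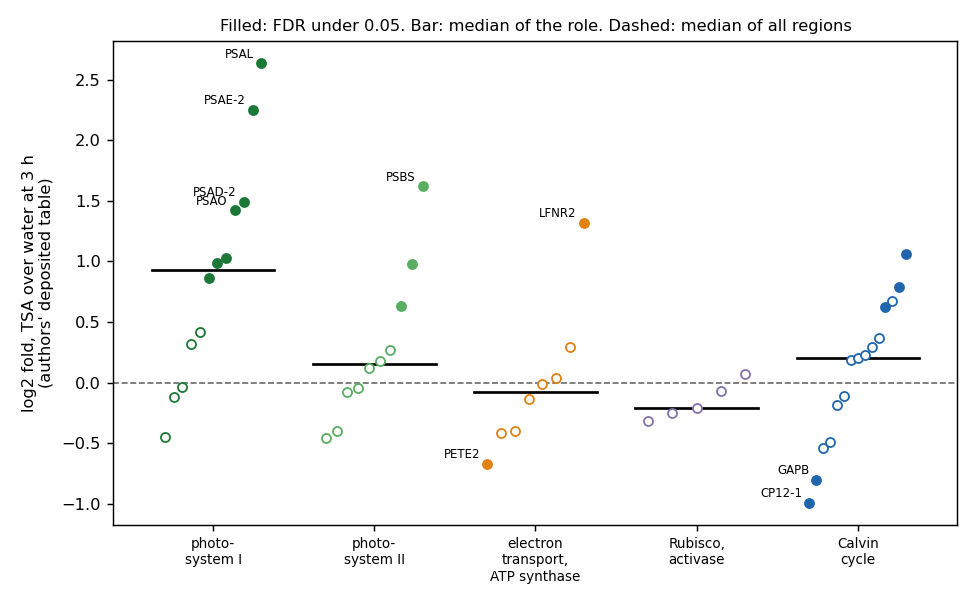
Log2 fold of H3K9/14ac with TSA over water at 3 h by the authors' deposited table (vertical axis) for the 50 regions, sorted within each role (horizontal axis); filled points passed an FDR of 0.05, bars are role medians and the dashed line is the median of all regions. The 7 filled photosystem I points lie between 0.86 and 2.63, and no Rubisco or activase region is filled.

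The strongest rise was at PSAL (AT4G12800; chromosome 4, 7521358 to 7522225). It had 119 and 139 reads in the TSA libraries, against 3 and 54 reads in the water libraries. In normalised reads these were 128 and 146 with TSA, against 4.01 and 40.1 in water. The TSA libraries lay above both water libraries, which themselves stood far apart. The log2 fold was 2.63 by the authors' deposited table (FDR 3.46e-06), and limma gave 3.26 ± 0.54 (SE; adjusted p = 0.000474). Without water library b limma gave 4.77, the highest of the 4 values with 1 library left out, and the lowest was 1.74.

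The stromal side of photosystem I, where ferredoxin docks, is built by the PSAD and PSAE proteins, each encoded by 2 genes. PSAE-2 (AT2G20260; chromosome 2, 8735848 to 8737294) had 258 and 294 normalised reads with TSA, against 25.4 and 90.6 in water, a log2 fold of 2.25 by the authors' deposited table (FDR 2.19e-06). PSAD-2 (AT1G03130; chromosome 1, 753621 to 754231) had 154 and 119.7 with TSA, against 50.8 and 46.0 in water, a log2 fold of 1.49 by the authors' deposited table (FDR 2.59e-06). At both genes the groups did not overlap, and the spread between the water libraries was far wider at PSAE-2. Low values at PSAE-2 came from the shallower library in GSNO, GSNO with cPTIO and water at 3 h, which had 22.8 with GSNO, 40.7 with GSNO and cPTIO and 25.4 in water.

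The other photosystem I subunits that rose were PSAO, PSAH-2, PSAF and PSAG. PSAO (AT1G08380), which with PSAL and PSAH forms the docking side for mobile antenna, had 154 and 129 normalised reads with TSA, against 57.5 and 47.5 in water, a log2 fold of 1.42 by the authors' deposited table (FDR 3.75e-06). PSAH-2 (AT1G52230) had 283 and 228 with TSA, against 95.0 and 155 in water, a fold of 1.03 by the authors' deposited table (FDR 0.00255). PSAF (AT1G31330), the subunit that receives plastocyanin, had 282 and 307 with TSA, against 149.9 and 145 in water. Its log2 fold was 0.99 by the authors' deposited table (FDR 0.000147). PSAG (AT1G55670), which lies on the antenna side of the core, had 226 and 195 with TSA, against 132 and 98.0 in water, a fold of 0.86 by the authors' deposited table (FDR 0.00406). Each of these 4 regions had both TSA libraries above both water libraries. The remaining 5 photosystem I regions were not called, with log2 folds from -0.45 at PSAN to 0.42 at PSAE-1 by the authors' deposited table.

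**Figure D2:**
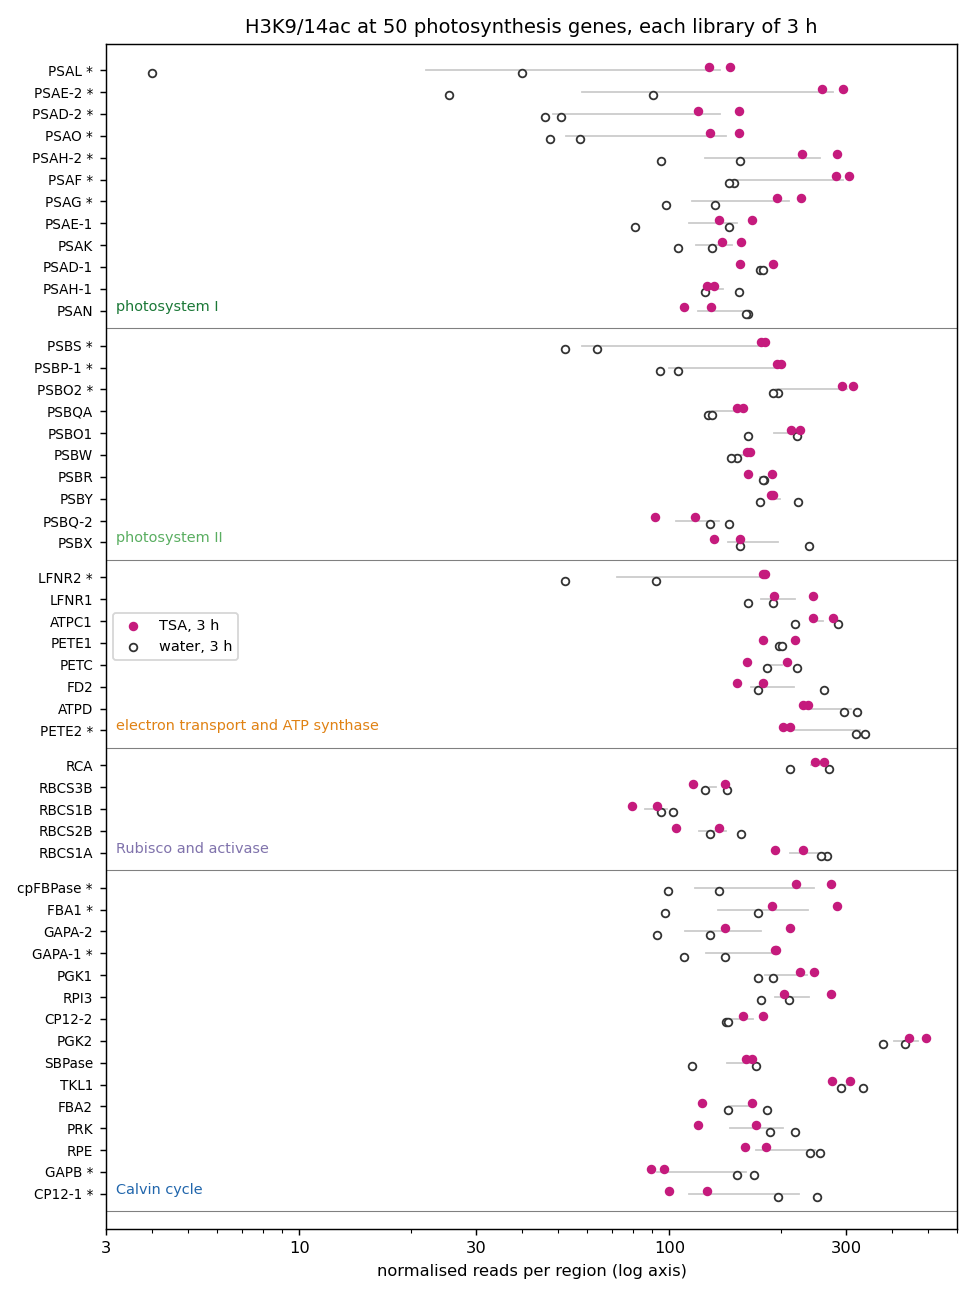
Normalised reads (horizontal log axis) at each of the 50 regions (rows, grouped by role and sorted by fold) in the 2 TSA libraries (filled) and the 2 water libraries (open) of 3 h, with a grey line between the group means. Stars mark regions with an FDR under 0.05 by the authors' deposited table; PSAL shows the widest separation, with 128 and 146 against 4.01 and 40.1.

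In photosystem II, PSBS, PSBP-1 and PSBO2 rose with TSA. PSBS (AT1G44575; chromosome 1, 16871802 to 16872601) had 177 and 182 normalised reads with TSA, against 52.2 and 63.9 in water, a log2 fold of 1.62 with an FDR of 2.32e-08 by the authors' deposited table. The groups were separated by more than the spread within either. PSBP-1 (AT1G06680), an extrinsic protein of the oxygen-evolving complex, had 200.6 and 195 with TSA, against 106 and 94.3 in water, a fold of 0.98 by the authors' deposited table (FDR 0.000444). PSBO2 (AT3G50820), the manganese-stabilising protein of the same complex, had 313 and 292 with TSA, against 197 and 191 in water, a fold of 0.64 by the authors' deposited table (FDR 0.0165). The other 7 photosystem II regions, among them PSBQA, PSBQ-2 and the small subunits PSBR, PSBW, PSBX and PSBY, had folds from -0.46 to 0.27 by the authors' deposited table and were not called.

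Among the carriers, the reductase gene LFNR2 and the plastocyanin gene PETE2 moved in opposite directions. LFNR2 (AT1G20020), whose protein passes electrons from ferredoxin to NADP, had 181 and 179.5 normalised reads with TSA, against 52.2 and 92.1 in water. The log2 fold was 1.32 by the authors' deposited table (FDR 0.000106). PETE2 (AT1G20340) had 212 and 203 with TSA, against 337 and 319 in water, a fold of -0.67 by the authors' deposited table (FDR 0.0114). The groups of PETE2 did not overlap, but the limma adjusted p, 0.0188 with all libraries, passed in 0 of the 4 fits with 1 library left out. PETC (the Rieske protein), FD2 (the main leaf ferredoxin), PETE1, LFNR1 and the ATP synthase genes ATPC1 and ATPD had folds from -0.41 to 0.30 by the authors' deposited table and were not called.

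None of the 5 regions at Rubisco and its activase was called with TSA by the authors' deposited table, where 0 of them had an unadjusted p under 0.05, nor by limma. Their log2 folds ran from -0.31 at RBCS1A to 0.07 at RCA by the authors' deposited table. RBCS1B, RBCS2B and RBCS3B are neighbouring, near-identical copies, so reads may have been split among them and their separate values are uncertain.

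In the Calvin cycle, cpFBPase, FBA1 and GAPA-1 rose and GAPB and CP12-1 fell with TSA. cpFBPase (AT3G54050), the chloroplast fructose bisphosphatase, had 272 and 219 normalised reads with TSA, against 99.0 and 136 in water, a log2 fold of 1.06 by the authors' deposited table (FDR 0.000569). FBA1, an aldolase, had 284 and 189 with TSA, against 174 and 97.3 in water, a fold of 0.79 by the authors' deposited table (FDR 0.0451). GAPA-1, the A subunit of the chloroplast glyceraldehyde phosphate dehydrogenase, had 193 and 194 with TSA, against 109.7 and 141 in water, a fold of 0.62 by the authors' deposited table (FDR 0.0440). For FBA1 the lower TSA library stood only slightly above the higher water library, and for GAPA-1 limma gave no call. GAPB (AT1G42970), the B subunit of the same dehydrogenase, had 89.0 and 96.6 with TSA, against 153 and 169 in water, a fold of -0.80 by the authors' deposited table (FDR 0.00615). CP12-1 (AT2G47400; chromosome 2, 19446783 to 19447394), a small protein that binds this dehydrogenase and phosphoribulokinase into an inactive complex, had 127 and 99.7 with TSA, against 197 and 251 in water. Its fold was -0.99 by the authors' deposited table (FDR 0.000899), and both TSA libraries lay below both water libraries. GAPA-2 had a fold of 0.68 at an FDR of 0.0666 by the authors' deposited table, and PRK, the phosphoribulokinase gene, -0.49 at an FDR of 0.142.

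Several of these proteins come from gene pairs, and in 8 pairs exactly 1 copy was called with TSA by the authors' deposited table. In 6 pairs that copy was higher with TSA (PSAD-2, PSAE-2, PSAH-2, PSBO2, LFNR2 and FBA1), and in all 6 it carried less of the mark per kilobase than its partner in water. PSAE-2 and PSAH-2 had regions of 1447 and 1722 bases, against 655 and 775 at PSAE-1 and PSAH-1. These regions, and that of CP12-2, also cover a neighbour, so their levels are not those of the copy alone. PSAD-2 had 224 normalised reads per kilobase with TSA, against 79.3 in water, and PSAD-1 had 291 with TSA, against 298 in water. LFNR2 had 198 per kilobase with TSA, against 79.0 in water, and LFNR1 had 295 with TSA, against 239 in water. In the other 2 pairs the called copy (PETE2 and CP12-1) was lower with TSA and carried more than its partner in water. CP12-1 had 185 per kilobase with TSA, against 366 in water, and CP12-2 had 194 with TSA, against 165 in water. The called copy's level per kilobase ran from 0.671 to 1.36 times its partner's with TSA, against 0.233 to 2.22 times in water. It ran from 0.359 to 2.15 times with GSNO, 0.488 to 2.24 times with GSH and 0.289 to 2.24 times with GSNO and cPTIO. The pairs were chosen by the TSA calls, which partly fixes the ratios both with TSA and in water. A narrower range with TSA than in any other group is therefore not independent of that choice. Per kilobase, the order within all 8 pairs was the same in the GSNO, the GSH and the GSNO with cPTIO libraries of 3 h. These took no part in the TSA calls. With TSA the rising copy was still the lower one per kilobase in 4 of 6 pairs. Without division by width, the order turned in at least 1 group other than TSA for PSBO, PSAH, PSAE and FBA. It held for PSAD, LFNR, PETE and CP12. In water PSBO2 had 194 normalised reads, against 192 at PSBO1. With GSH PSAH-2 had 187, against 147 at PSAH-1. With TSA only PSAD-2 and LFNR2 of the rising copies were then below their partners. The difference in fold between copies was not tested.

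Across the 50 regions the fold went with the level of the mark, as it did over all regions. The median level in water was 108 normalised reads for the 14 regions that rose, 224 for the 3 that fell and 179.8 for the 33 not called, values that share the water libraries with the fold. The GSH libraries of 3 h are not among those of the fold, though all libraries were scaled together. Against the level in them, the limma fold had a Pearson correlation of -0.64 over the 50 regions and -0.51 over the 13362 regions. Levels and folds share width and base composition of the region, and regions are not independent replicates.

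The limma fit on recovered reads, with adjusted p under 0.05, called 13 of the 50 regions higher and 4 lower with TSA, against 5.32% and 10% of all regions. It left out GAPA-1 and added RPE, a pentose phosphate epimerase gene, with a log2 difference of -0.53 ± 0.18 (SE; adjusted p = 0.0455). The share that limma called lower, 4 of 50, is near that of all regions. PSAD-2, PSAF, PSAL, PSBP-1, PSBS and CP12-1 passed in each of the 4 fits with 1 library left out, while PSBO2, PETE2 and GAPB passed in 0 of them. The limma count was 8 without TSA library a and 9 without water library a. Both TSA libraries lay above both water libraries at 22 of the 50 regions and below at 10, against 31.7% and 30.3% of all regions.

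Set directly against the other agents at 3 h, TSA differed from them at some of the same genes. Most regions called higher were photosystem genes, while those called lower came from the Calvin cycle, photosystem II and electron transport. Against GSNO, limma called 8 regions higher (PSAE-2, PSAF, PSAG, PSAH-2, PSAO, PSBP-1, PSBS and cpFBPase) and 6 lower (PETE2, PRK, GAPB, PSBX, CP12-1 and RPE), where 3.67% and 8.05% of all regions were called. Against GSNO with cPTIO it called 8 higher (PSAD-2, PSAE-2, PSAF, PSAH-2, PSBO2, PSBP-1, PSBS and cpFBPase) and 5 lower (PETE2, PSBX, ATPD, RPE and CP12-1), where 5.9% and 10.5% of all regions were called. Against GSH it called PSAF and cpFBPase higher and GAPB, PSBX and CP12-1 lower, where 2.08% and 6.36% of all regions were called. The shares called lower, 5 of 50 against GSNO with cPTIO and 3 of 50 against GSH, are near those of all regions. With only 2 of 50 called, the share higher against GSH is also near that of all regions. PSAF, cpFBPase, PSBX and CP12-1 were called in each of these 3 comparisons, which share the TSA libraries. PSAL, with the largest fold over water, and LFNR2 were called in none of them. PSAF was the only photosystem I region called against GSH. The mean at PSAL was 137 normalised reads with TSA and 22.1 in water. It was 76.7 with GSNO, 65.1 with GSH and 93.4 with GSNO and cPTIO. CP12-1 differed by -1.07 ± 0.18 from GSNO (adjusted p = 0.000752), by -1.04 ± 0.18 from GSH (adjusted p = 0.0014) and by -1.11 ± 0.18 from GSNO with cPTIO (log2, SE, limma; adjusted p = 0.000336). PSBX, a small photosystem II subunit, had 132 and 155 normalised reads with TSA, against 257 and 221 with GSNO. It had 286 and 235 with GSH and 236 and 252 with GSNO and cPTIO, and the 2 TSA libraries lay below these 6. In water PSBX had 155 and 238, where the lower value overlapped the TSA libraries. Its fold over water was -0.46 by the authors' deposited table (FDR 0.185). Without GSNO library a the count against GSNO was 2, without TSA library a 3 and without TSA library b 6. Without GSH library a the count against GSH was 1, and with the other libraries left out in turn it was 2 or 3. Against GSNO with cPTIO the count was 6 without TSA library a, and 7 without TSA library b or GSNO with cPTIO library a.

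**Figure D3:**
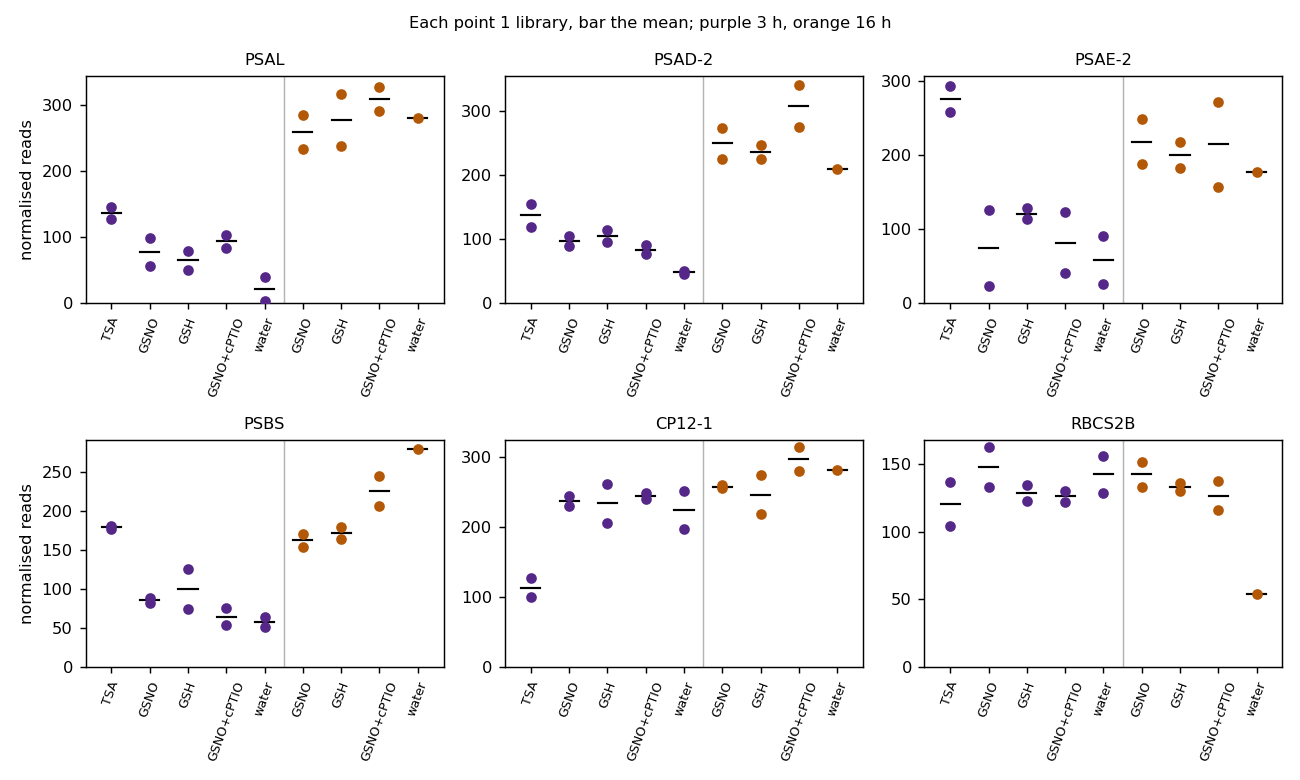
Normalised reads (vertical axis from 0) of 6 genes in each of the 17 libraries, by treatment and time (horizontal axis; 3 h left of the grey line, 16 h right of it), with bars for the means. The means of PSAL, PSAD-2, PSAE-2 and PSBS are lowest in water at 3 h, CP12-1 is lowest with TSA at 113 ± 19.0 (SD, n = 2), and RBCS2B is lowest in the 1 water library of 16 h at 53.9.

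GSNO, GSH and GSNO with cPTIO changed few of these genes at 3 h. With GSH 1 region was higher, PSAD-2, with a log2 fold of 1.11 by the authors' deposited table (FDR 0.0167), against 0.105% of all regions higher and 0% lower. PSAD-2 had 114 and 95.3 normalised reads with GSH, against 50.8 and 46.0 in water, and limma called 0 regions of the 50, with 10 at an unadjusted p under 0.05 (2.82% of all regions), where it called 0.00748% of all regions higher and 0% lower. With GSNO 0 regions were called by the authors' deposited table, where 0.0449% of all regions were higher and 0% lower, and 3 had an unadjusted p under 0.05 (2.22% of all regions). PSAD-2 and PSAL had the smallest p there, with log2 folds of 1.01 and 1.80 (FDR 0.900 and 1.00) by the authors' deposited table. With GSNO and cPTIO 0 regions were called by the authors' deposited table, where 0.015% of all regions were higher and 0.0225% lower, and 3 had an unadjusted p under 0.05 (3.34% of all regions). PSAL and PSAD-2 again had the smallest p, with log2 folds of 2.08 and 0.79 by the authors' deposited table. limma called 0 of the 50 regions in both comparisons, with 4 and 3 at an unadjusted p under 0.05 (3.85% and 4.53% of all regions), where it called 0.00748% of all regions higher and 0% lower in each. PSAL had 55.6 and 97.7 normalised reads with GSNO, 79.5 and 50.8 with GSH, and 103 and 83.6 with GSNO and cPTIO, against 4.01 and 40.1 in water. All 6 of these libraries lay above both water libraries, which the 3 comparisons share. Without water library b limma called 1 region with GSNO and 1 with GSNO and cPTIO.

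The donor, the tripeptide without the nitroso group and the donor with scavenger were compared directly at both times. In these 4 comparisons limma called 0 of the 50 regions, and over all regions it called 0% for GSNO against GSH at 3 h and 16 h, 0% for GSNO against GSNO with cPTIO at 3 h and, at 16 h, 0.0225% higher and 0% lower. At an unadjusted p under 0.05 the counts were 3 and 2 for GSNO against GSH at 3 h and 16 h, and 2 and 6 for GSNO against GSNO with cPTIO at 3 h and 16 h. Of all regions 1.71%, 2.52%, 4.6% and 9.71% passed that p in these comparisons, so the counts of the last 3 are near the background. For GSNO against GSH at 3 h the smallest p belonged to PSAK, an antenna-side subunit of photosystem I, with a log2 difference of 0.54 (limma, 95% interval 0.15 to 0.92), and PSAH-2, with -0.59 (-1.13 to -0.06). At 16 h they belonged to PGK1, a phosphoglycerate kinase gene, with 0.48 (0.08 to 0.89), and GAPA-1, with -0.50 (-0.95 to -0.04). For GSNO against GSNO with cPTIO, PETE1 had 0.54 (0.16 to 0.93) and PSBO2 0.51 (0.10 to 0.91) at 3 h, and GAPA-1 had -0.88 (-1.33 to -0.42) and PSBO1 -0.68 (-1.10 to -0.27) at 16 h. These intervals leave out 0 but were not adjusted for the number of regions. Without GSNO with cPTIO library b of 16 h, 2 regions were called in the last comparison.

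After 16 h, RBCS2B (AT5G38420; chromosome 5, 15381213 to 15382060), a Rubisco small subunit gene, was the 1 region called against water. Its log2 fold was 1.40 with GSNO (FDR 0.0337), where 0.913% of all regions were higher and 0.0225% lower, and 1.31 with GSH (FDR 0.0066), where 2.09% were higher and 0.0674% lower, both by the authors' deposited table. With GSNO and cPTIO the fold was 1.23 at an FDR of 0.379 by the authors' deposited table, where 0 of the 50 regions were called, against 0.457% of all regions higher and 0.105% lower, and 2 of the 50 had an unadjusted p under 0.05 (5.87% of all regions). RBCS2B had 133 and 151 normalised reads with GSNO, 136 and 130.2 with GSH and 137 and 116 with GSNO and cPTIO, against 53.9 in water. The contrast rests on that water library, which had 34 reads there, and water at 3 h had 128 and 156. limma called 0 of the 50 regions in each of these 3 comparisons, with 4 for GSNO, 5 for GSH and 6 for GSNO with cPTIO at an unadjusted p under 0.05, near the 7.75%, 7.47% and 11.6% of all regions at that p. Of all regions it called 0.322% higher and 0.00748% lower with GSNO, 0.374% higher and 0% lower with GSH, and 0.554% higher and 0.112% lower with GSNO and cPTIO. The neighbouring copies RBCS1B and RBCS3B had 77.6 and 120.4 normalised reads in the 16 h water library. In GSNO with cPTIO at 16 h GAPA-1 had the next smallest p, with a fold of 0.97 at an FDR of 0.631 by the authors' deposited table.

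Acetylation at 16 h was also set against that at 3 h within each treatment measured at both times. Most of the regions called higher at 16 h were photosystem I genes, joined by photosystem II genes with GSNO and cPTIO. With GSNO limma called 8 of the 50 regions higher at 16 h, with GSH 3 and with GSNO and cPTIO 17, where 0.614%, 0.269% and 1.89% of all regions were called higher. It called 0 of the 50 lower in each, where 0.269%, 0.225% and 1.55% of all regions were lower. For all 12 photosystem I regions and all 10 photosystem II regions the difference was above 0 in each of the 3 treatments. Photosystem I had 7, 3 and 8 of its 12 regions higher with GSNO, with GSH and with GSNO and cPTIO, and medians of 1.15, 1.05 and 1.17 on the log2 scale. Photosystem II had 1, 0 and 7 of 10 higher and medians of 0.58, 0.51 and 0.85. Electron transport had 0, 0 and 1 of 8 higher and medians of 0.09, 0.11 and 0.23. The Calvin cycle had 0, 0 and 1 of 15 higher and medians of -0.03, -0.04 and 0.35, and Rubisco and activase had 0 of 5 in each and medians of -0.05, -0.10 and 0.19. The difference between roles was not tested. The median over all regions lay between -0.01 and 0.00 in these 3 comparisons. Duration of treatment, time of day and age differ together between the times and cannot be told apart.

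**Figure D4:**
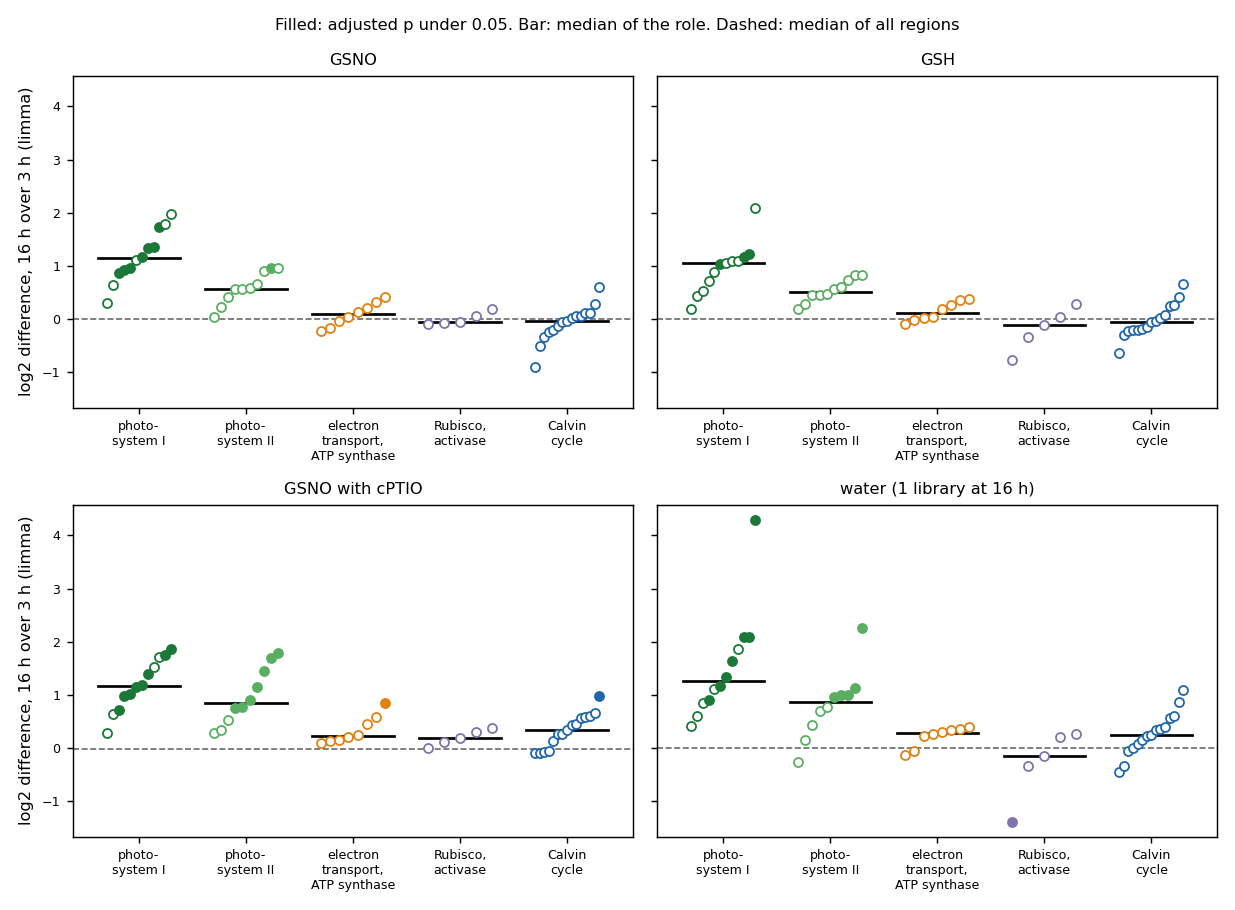
Log2 difference of H3K9/14ac at 16 h over 3 h from limma (vertical axis) for the 50 regions, sorted within each role (horizontal axis), with GSNO, with GSH, with GSNO and cPTIO and in water; filled points passed an adjusted p of 0.05, bars are role medians and the dashed line is the median of all regions. Photosystem I medians are 1.15, 1.05, 1.17 and 1.26 in the 4 panels, and every photosystem I point lies above 0.

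PSAD-2, PSAF and PSAK were higher at 16 h in all 3 treatments. PSAD-2 had 273 and 226 normalised reads at 16 h, against 89.9 and 105 at 3 h, with GSNO, and 247 and 225 at 16 h, against 114 and 95.3 at 3 h, with GSH. With GSNO and cPTIO it had 340.3 and 275 at 16 h, against 77.3 and 90.2 at 3 h. The log2 differences were 1.35, 1.17 and 1.86 (limma, each ± 0.24 SE) with adjusted p of 0.0043, 0.0179 and 6.67e-05, and no library of 16 h overlapped one of 3 h. PSAK had 282 and 255 at 16 h, against 122 and 108 at 3 h, with GSH, a log2 difference of 1.22 ± 0.19 (SE, limma; adjusted p = 0.0017). PSAF had 361 and 306 at 16 h, against 161 and 133 at 3 h, with GSNO, a log2 difference of 1.18 ± 0.19 (SE, limma; adjusted p = 0.00205).

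Other photosystem I subunits passed in some of the treatments. PSAO, PSAH-2, PSAG and PSAN, a subunit on the plastocyanin side, were called with GSNO and with GSNO and cPTIO, and PSAE-1 with GSNO and cPTIO. With GSNO, PSAO differed by 1.73 ± 0.30 and PSAH-2 by 1.36 ± 0.26 (log2, SE, limma; adjusted p = 0.0039 and 0.00908). PSAL was not called in any of the 3, at 1.79 with GSNO, 2.09 with GSH and 1.72 with GSNO and cPTIO (log2, each ± 0.54 SE, limma; adjusted p = 0.154, 0.0990 and 0.0848). It had 232 and 284 normalised reads at 16 h, against 55.6 and 97.7 at 3 h, with GSNO, 315 and 238, against 79.5 and 50.8, with GSH, and 291 and 327, against 103 and 83.6, with GSNO and cPTIO. Its 6 libraries of 16 h all lay above its 6 treated libraries of 3 h.

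In photosystem II, PSBP-1 was higher at 16 h with GSNO and with GSNO and cPTIO, and PSBO1, PSBO2, PSBQ-2, PSBR, PSBS and PSBW with GSNO and cPTIO. PSBO2 had 656 and 483 normalised reads at 16 h, against 139.7 and 214 at 3 h, with GSNO and cPTIO, a log2 difference of 1.70 ± 0.20 (SE, limma; adjusted p = 2.31e-05). PSBS had 245 and 206 at 16 h, against 54.3 and 75.6 at 3 h, in the same treatment, a difference of 1.80 ± 0.28 (SE, limma; adjusted p = 0.00047). At both genes the libraries of 16 h stood well above those of 3 h. The remaining calls with GSNO and cPTIO were the plastocyanin gene PETE1, at 0.85 ± 0.19, and the aldolase gene FBA1, at 0.98 ± 0.27 (log2, SE, limma; adjusted p = 0.0110 and 0.0445).

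These counts varied with single libraries. With GSNO the count of 8 was 1 without GSNO library a of either time. With GSH the count of 3 was 0 without GSH library a of 16 h or library b of 3 h, and 1 without library b of 16 h. With GSNO and cPTIO the count of 17 was 8 without library a of 16 h and 10 without library a of 3 h. PSAD-2, PSAH-2, PSAK, PSBO2, PSBP-1, PSBS and PSBW passed with GSNO and cPTIO in each of the 4 fits with 1 library left out. All libraries of 16 h lay above all of 3 h at 26 of the 50 regions with GSNO, 27 with GSH and 37 with GSNO and cPTIO, against 18.8%, 20.9% and 20.1% of all regions. They lay below at 5, 5 and 0 of the 50, against 18.6%, 20.9% and 19.9% of all regions.

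Water itself was compared between times after these values had been seen, with the 1 water library of 16 h assumed to vary like the other groups. limma called 12 regions higher and RBCS2B lower at 16 h, where 0.741% and 1.13% of all regions were called. The 12 were 7 photosystem I genes (PSAD-1, PSAD-2, PSAG, PSAH-2, PSAK, PSAL and PSAO) and 5 photosystem II genes (PSBO2, PSBP-1, PSBR, PSBS and PSBX). PSBS had 280.4 normalised reads at 16 h, against 52.2 and 63.9 at 3 h, a log2 difference of 2.26 ± 0.34 (SE, limma; adjusted p = 0.000405). PSAL had 280.4 at 16 h, against 4.01 and 40.1 at 3 h, a difference of 4.29 ± 0.67 (SE, limma; adjusted p = 0.000505), which was 2.78 without water library a and 5.80 without water library b. RBCS2B had 53.9 at 16 h, against 128 and 156 at 3 h, a difference of -1.38 ± 0.31 (SE, limma; adjusted p = 0.0170), and it was called in 1 of the 2 fits with 1 water library of 3 h left out. Without water library b of 3 h the count of called regions was 8.

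Whether the response to a treatment differed between the times was tested as the fold against water at 16 h minus that at 3 h, again after the values had been seen. limma called 0 of the 50 regions for GSNO, for GSH and for GSNO with cPTIO, where it called 0.112%, 0.112% and 0.165% of all regions higher and 0.00748%, 0.00748% and 0.015% lower. At an unadjusted p under 0.05 there were 5, 9 and 4 of the 50, against 6.0%, 4.84% and 7.44% of all regions. RBCS2B had the smallest p in each, with differences of 1.33, 1.43 and 1.38 (adjusted p = 0.496, 0.382 and 0.303). Without water library b of 3 h, 1 region was called in each.

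Some genes were higher both with TSA at 3 h and at 16 h over 3 h. Of the 8 regions higher at 16 h with GSNO, 6 (75%) were also higher with TSA over water by the authors' deposited table, which is 42.9% of the 14 higher with TSA. Of the 3 with GSH, 2 (66.7%) were, and of the 17 with GSNO and cPTIO, 9 (52.9%) were. Over all regions 47.6%, 61.1% and 34.1% of those higher at 16 h were also higher with TSA by the authors' deposited table, so the share for GSH lies near that background. TSA over water uses no library of these 16 h comparisons. The limma log2 difference with TSA had a Pearson correlation of 0.65, 0.64 and 0.66 with that of 16 h over 3 h with GSNO, with GSH and with GSNO and cPTIO over the 50 regions. Without PSAL it was 0.59, 0.52 and 0.63, and over all 13362 regions 0.19, 0.18 and 0.18. The points share sequence, width and level of the regions and are not independent replicates. PSAK and PSAN were higher at 16 h with GSNO and not called with TSA, while LFNR2 and cpFBPase, for example, were higher with TSA and not called at 16 h in any of the 3 treatments.

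**Figure D5:**
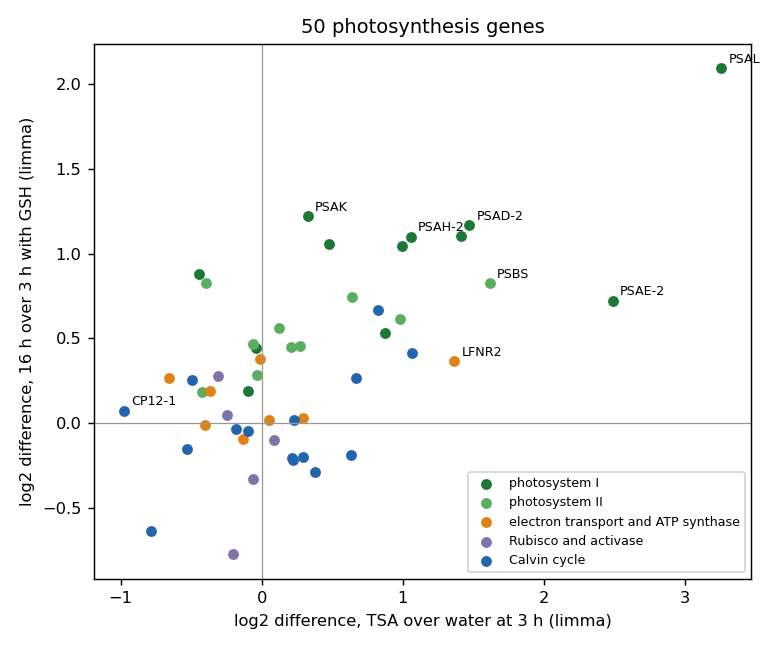
Each point is 1 of the 50 regions, with the log2 difference of TSA over water at 3 h on the horizontal axis and that of 16 h over 3 h with GSH on the vertical axis, both from limma and coloured by role. Photosystem I points lie above 0 on the vertical axis, PSAL lies farthest right at 3.26, and the Pearson correlation over the 50 points is 0.64.

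The authors also called peaks in each library. A peak overlapped 46 and 37 of the 50 genes in the TSA replicates of 3 h, 45 and 28 with GSNO, 47 and 44 with GSH, 44 and 31 with GSNO and cPTIO, and 40 and 34 in water. At 16 h the counts were 47 and 41 with GSNO, 50 and 49 with GSH and 48 and 44 with GSNO and cPTIO, with 49 in the first TSA replicate and 40 in the first water replicate. Of the 12 photosystem I genes, 12 and 6 had a peak with TSA at 3 h, 8 and 3 with GSNO, 10 and 8 with GSH and 9 and 5 with GSNO and cPTIO, against 6 and 6 in water. At 16 h they numbered 12 and 12 with GSNO, 12 and 12 with GSH and 12 and 10 with GSNO and cPTIO. The first water replicate of 16 h had 10 and the first TSA replicate of 16 h had 12. The lists of 3 h held 7884 to 13881 peaks, and those of 16 h counted above held 6030 to 14758. The share of all genes with a peak in each list was not counted, and the part of list length in these counts was not tested. The second water replicate of 16 h had 1199 peaks and 0 of the 50 genes, and the second TSA replicate of 16 h had 385 peaks and 1 gene. PSAL and PSAO had no peak in the 8 lists of GSNO, GSH, GSNO with cPTIO and water at 3 h, a peak in the first TSA replicate of 3 h and none in the second. Both also had a peak in the first water replicate of 16 h and in both GSNO replicates of 16 h.

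Genes that assist photosynthesis were followed in a list of 24 genes for assembly factors, alternative electron routes, photoprotection and further isoforms, 21 of which had a region. With TSA 6 of the 21 were higher and 0 lower by the authors' deposited table, against 10.7% and 10.1% of all regions. limma called 2 of the 21 higher and 0 lower, against 5.32% and 10% of all regions. The 6 were HCF136, an assembly factor of photosystem II, at 0.80, PGR5, needed for cyclic electron flow, at 0.77, the thylakoid kinase gene STN8 at 0.80, TKL2 at 0.71, the ferredoxin gene FD1 at 0.61 and PSB28 at 0.78, all log2 folds of the authors' deposited table. At 16 h over 3 h limma called 3 of the 21 higher with GSNO and 4 with GSNO and cPTIO. Of all regions it called 0.614% and 1.89% higher. PSB27, a photosystem II repair factor, was called with GSNO (1.02 ± 0.20) and with GSNO and cPTIO (1.03 ± 0.20), both on the log2 scale with SE. PGR5 was called with GSNO, HCF136 and the kinase gene STN7 with GSNO and cPTIO, and ZEP, a xanthophyll cycle epoxidase, in both treatments, with log2 differences from 0.75 to 1.92. With GSH 0 of the 21 were called. Of 9 photorespiration genes with a region 1, the glycine decarboxylase gene GLDP1, was higher with TSA, at 0.59 by the authors' deposited table. That share is near the 10.7% of all regions called higher. At 16 h over 3 h 0 of the 9 were called in any of the 3 treatments. Among 6 genes often used as references, UBQ10 was lower with TSA, at -0.85 by the authors' deposited table, and the other 5 were not called. Of the cell type genes with a region, TMM was higher with TSA, at 0.73 by the authors' deposited table. SCR, SHR and GL2 were not called, with folds from -0.04 to 0.02 there. The part of cell makeup in the results was not tested.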

How the data were processed

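The authors deposited 7 tables, comparing each agent with water at 3 h and each agent except TSA with water at 16 h. Each is a DiffBind table of 13362 regions with log2 concentrations, log2 folds and p-values with FDR. Peak lists were deposited per library. DiffBind and the builds TAIR10 and TAIR9 are named in the submitters' processing notes, and input subtraction was not stated in the labels. Because the deposited values are log2 means, the log2 concentrations were solved for whole reads per library (every region whole within 1e-08). For groups of 2 libraries, 3 to 8 splits gave whole reads, so wholeness does not pick the split. The split with the closest scaled library medians was taken. For GSNO with cPTIO at 16 h these differed by 0.000554 on the log2 scale, against 0.0828 for the next split. Values per library, their spread and fits with a library left out rest on that choice. The 20 peak lists hold positions, and lines longer than 100000 bases, 1 in each of 14 lists, were left out.

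Loci were matched by locus tag to RefSeq's TAIR10.1 table (50 of 50), whose coordinates are not printed, so the overlap assumes that it and the deposited tables place genes alike. Coordinates are those of the deposited tables. Calls against water are the authors' FDR under 0.05. All other comparisons used limma 3.58.1 (R 4.3.3) on log2 of reads divided by a TMM factor plus a pseudocount of 1, with 1 mean per group over the 17 libraries, a trended variance and Benjamini-Hochberg adjustment over all 13362 regions, and were tested on simulated data. No filter on low values was used, and 0 deposited columns of per-sample values went unused. Nothing says that the 2 samples of a group came from separate cultures, so p-values measure only the spread between these samples, which may be technical.

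The genes, roles and lists were chosen with earlier results of these data known. Named genes are those called in any comparison with their gene copies, the extremes of each role in water, and the 2 smallest p where nothing was called. Alternatives were another pseudocount, a filter at a mean of 20 reads, equal library medians, no variance trend, FDR under 0.1, regions without another gene, and each library left out. Promoter and protein sequences were not used here.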

Additional observations from a re-analysis of the deposited data

How the results depend on the processing

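No result reversed its direction under the alternatives run. The median TSA fold of the 50 regions was 0.17 with limma, against 0.15 in the authors' deposited table. With limma on recovered reads the single calls with GSH at 3 h, GSNO at 16 h and GSH at 16 h became 0. Without a variance trend limma called 7 regions for TSA against GSNO (main 14), 2 for TSA against GSH (5), 3 for GSNO at 16 h over 3 h (8) and 9 for GSNO with cPTIO at 16 h over 3 h (17). With a pseudocount of 5 it called 5 for GSH at 16 h over 3 h (3). A mean of at least 20 reads removed 0 regions.

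With each library left out in turn, limma called 8 to 13 regions for TSA against water, 0 to 1 for GSNO, for GSH and for GSNO with cPTIO at 3 h, 0 to 0 for GSNO and for GSH at 16 h, and 0 to 1 for GSNO with cPTIO at 16 h. The ranges were 2 to 15 for TSA against GSNO, 1 to 3 against GSH and 6 to 10 against GSNO with cPTIO. They were 0 to 0 for GSNO against GSH at both times and against GSNO with cPTIO at 3 h, and 0 to 2 at 16 h. For 16 h over 3 h they were 1 to 9 with GSNO, 0 to 2 with GSH, 8 to 13 with GSNO and cPTIO and 8 to 10 in water, and 0 to 1 for each response at 16 h minus 3 h. Fewer libraries, with a lone one assumed to vary like the other groups, enter each of these fits. No paired analysis was possible because the recovered libraries carry no replicate number. The names a and b order them by depth, which is no label. The difference between a and b had correlations of 0.0822 to 0.326 over all regions between groups other than TSA, and of -0.0687 to 0.0337 between TSA and the others. The part of this in the results was not tested. Depth limits precision most at low regions: PSAL had 3 reads in water library a of 3 h. A search for promoter motifs was not run.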
